A study of Mus musculus with 20 samples.

Results

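Nqo1, Tiparp, Aldh3a1 and Nfe2l2 were followed in fetal mouse hearts after maternal dosing with TCDD, a dioxin that binds the aryl hydrocarbon receptor (AhR). The 4 genes were chosen by name, as textbook members of the AhR and Nrf2 gene batteries, and every probe set that the platform annotation gives to them was taken. This gave 6 of the 12422 mouse probe sets on the array: 2 for Nqo1, 2 for Aldh3a1, 1 for Tiparp and 1 for Nfe2l2. Of these, 5 passed the filter on low signal and were among the 8097 probe sets tested, and the Aldh3a1 probe set 162331_f_at did not pass.

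Dams received corn oil, or TCDD at 1.5, 3 or 6 µg/kg, by oral gavage on gestation day 14.5, and whole fetal hearts were collected on day 17.5. There were 8 control arrays and 4 arrays at each dose, 20 in all. The label of array 1 at 1.5 µg/kg carries a differently written treatment day, while the other 19 arrays give 14.5. The series' design text speaks of 4 replicates at dose 0, while 8 arrays carry the control label. The strain of the mice, and whether hearts were pooled or came from separate litters, are not given in the sources used here, so each p-value measures only the spread between these arrays, which may be technical. In whole hearts, fewer cells of a type and less RNA per cell cannot be told apart.

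AhR is a ligand-activated transcription factor that, once bound by a dioxin, enters the nucleus, pairs with Arnt and binds DNA motifs with the core GCGTG. Its best known targets are the cytochrome P450 enzymes Cyp1a1 and Cyp1b1. Nfe2l2 encodes Nrf2, a stress-activated factor that is held in check by Keap1 and that binds antioxidant response elements, which carry the pattern TGACNNNGC, together with a small Maf protein. Nqo1, a quinone reductase, and Aldh3a1, an aldehyde dehydrogenase, belong to the classical dioxin-inducible battery of mouse liver. Tiparp is a mono-ADP-ribosyltransferase that is induced by AhR and represses it in turn.

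Promoter sequences are shown because AhR and Nrf2 act through such DNA motifs. They cover 250 bases before to 50 bases after the RefSeq start site (assembly GRCm38.p6), and both motifs were searched on both strands. Capitals mark a match, CACGC being GCGTG read on the other strand. Tiparp (chr3:65528197-65528496, plus strand) held 1 AhR core on the reverse strand, with its first base at -170. Nfe2l2 (chr2:75704614-75704913, minus strand) held 1 antioxidant response element, at -240. Nqo1 (chr8:107403156-107403455, minus strand) had neither pattern in this window. Cyp1a1 (chr9:57697363-57697662, plus strand), given for comparison, held 1 AhR core at -54.
Tiparp: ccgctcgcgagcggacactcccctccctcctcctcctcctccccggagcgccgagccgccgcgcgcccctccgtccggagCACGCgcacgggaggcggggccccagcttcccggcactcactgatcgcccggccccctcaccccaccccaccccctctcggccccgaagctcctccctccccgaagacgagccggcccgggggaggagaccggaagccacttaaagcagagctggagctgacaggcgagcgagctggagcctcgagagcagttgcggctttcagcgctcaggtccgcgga
Nfe2l2: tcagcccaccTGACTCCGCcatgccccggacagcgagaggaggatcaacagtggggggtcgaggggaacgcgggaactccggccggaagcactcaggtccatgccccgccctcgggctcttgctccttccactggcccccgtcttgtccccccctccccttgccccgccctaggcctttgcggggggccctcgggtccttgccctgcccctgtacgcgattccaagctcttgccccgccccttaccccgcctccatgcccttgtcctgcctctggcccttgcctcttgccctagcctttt
Nqo1: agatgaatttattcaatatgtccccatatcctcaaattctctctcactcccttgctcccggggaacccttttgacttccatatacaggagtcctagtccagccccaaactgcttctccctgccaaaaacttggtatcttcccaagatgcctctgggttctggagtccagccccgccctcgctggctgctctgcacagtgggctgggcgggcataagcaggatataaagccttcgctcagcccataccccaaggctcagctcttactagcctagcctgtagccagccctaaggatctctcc
Cyp1a1: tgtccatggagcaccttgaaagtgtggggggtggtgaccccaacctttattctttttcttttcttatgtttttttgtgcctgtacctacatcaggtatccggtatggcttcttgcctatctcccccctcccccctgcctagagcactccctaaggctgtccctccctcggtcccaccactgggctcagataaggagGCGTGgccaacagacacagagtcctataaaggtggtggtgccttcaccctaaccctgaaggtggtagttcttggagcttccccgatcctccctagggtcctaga
Among 32851 RefSeq promoters of the same length, 32.4% held an AhR core and 12.4% an antioxidant response element. A match is a description of the letters in the window, not a measured binding site.

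No probe set of the 4 genes passed the test at any dose. In the fit with limma across 8097 probe sets, 0 of 5 passed a Benjamini-Hochberg adjusted p of 0.05 at 1.5 µg/kg, where 0.210% of all probe sets passed. At 3 µg/kg 0 of 5 passed, against 0.0247% of all, and at 6 µg/kg 0 of 5 passed, against 0.0741% of all. With all 12 TCDD arrays set against the 8 controls, 0 of 5 passed in limma, against 0.0494% of all. In limma's joint test of the 3 doses 0 of 5 passed, against 0.185% of all, and in the linear trend over dose 0 of 5 passed, against 0.0618% of all. Before adjustment, p was under 0.05 for Nfe2l2 at 6 µg/kg and in the trend, for the Aldh3a1 probe set 99548_at in the joint test, and for no other of these probe sets in these 6 comparisons. Of all probe sets, 9.15% had such a p at 6 µg/kg, 7.22% in the trend and 12.5% in the joint test. With so few probe sets passing, a count of 0 among 5 is what the background gives, and the intervals on each gene carry more information than the counts. Exact permutation tests of the 6 probe sets at each dose gave p from 0.0566 to 0.883 over 18 two-sided tests, where the smallest p that 495 splits allow is 0.00202.

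**Figure D1:**
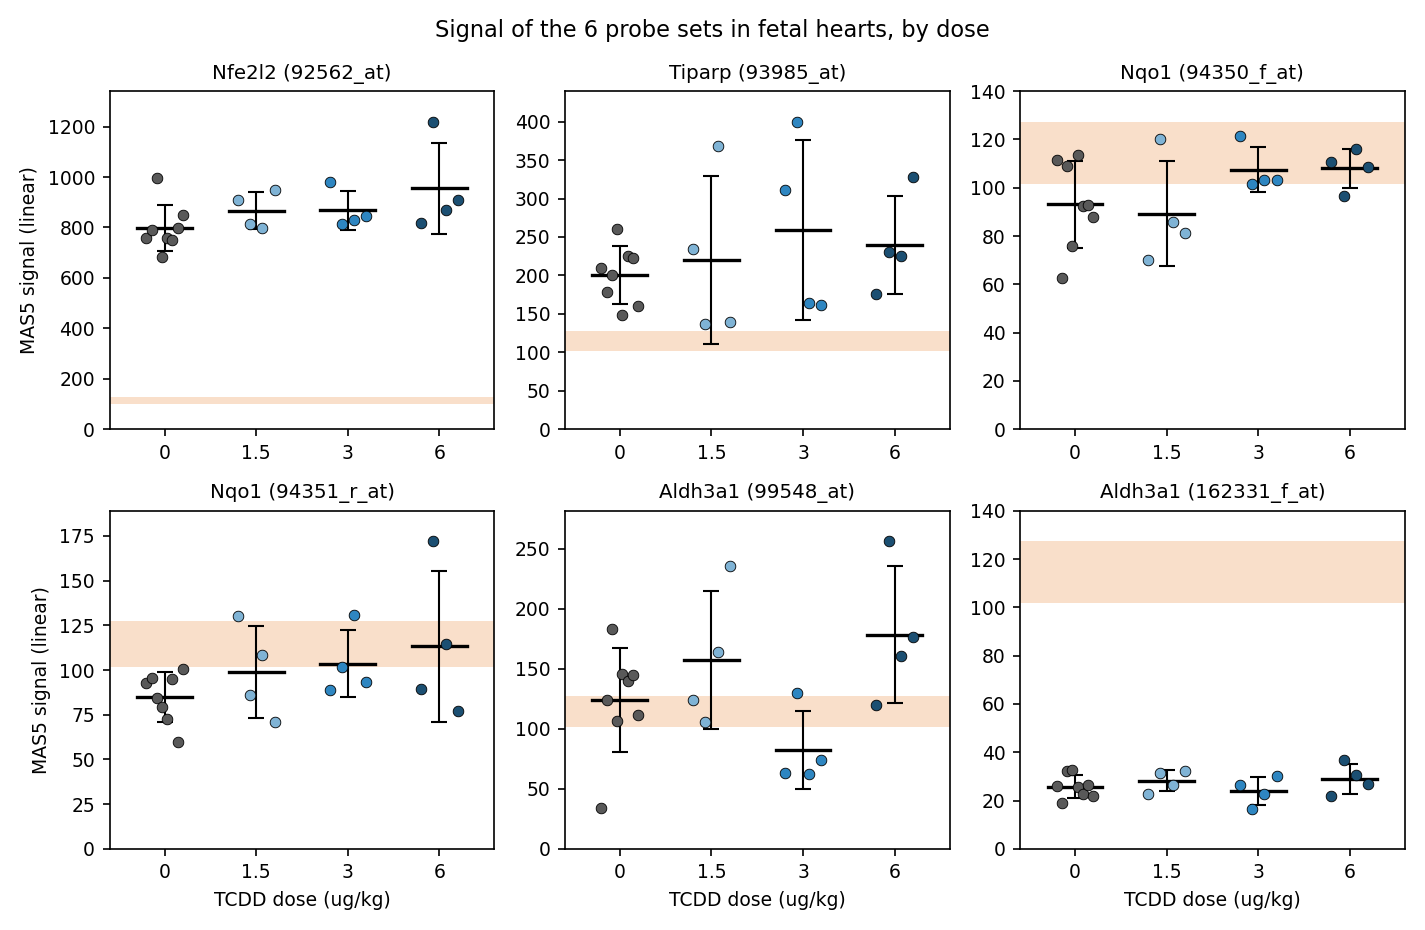
Signal of each probe set of the 4 genes on every array (y axes, scaled MAS5 signal in arbitrary units), by TCDD dose in µg/kg (x axes). Points are arrays, black bars are group means ± SD (8 controls, 4 arrays a dose), and the orange band spans the 40th percentiles of the 20 arrays. Tiparp and Nfe2l2 lie above the band on all 20 arrays, the probe set 162331_f_at of Aldh3a1 lies below it on all 20, and dosed and control arrays overlap for each probe set.

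The detection background differed between the genes. The signal is a scaled MAS5 value, in arbitrary units, and the 40th percentile of an array lay between 102 and 127. Bacterial and yeast control probe sets, 19 in number, were used to show what an array reads where no mouse transcript is targeted, and their highest value on an array lay between 42.9 and 134.2. Tiparp and Nfe2l2 lay above both marks on 20 of 20 arrays. The Aldh3a1 probe set 99548_at reached its array's 40th percentile on 15 of 20 arrays and exceeded the highest of these control probe sets on 18. The Nqo1 probe sets reached the 40th percentile on only 4 of 20 arrays each, the fewest that the filter admits, and exceeded the highest control probe set on 15 (94350_f_at) and 13 (94351_r_at). For 94351_r_at 0 of 8 control arrays reached that percentile, so it passed the filter through dosed arrays alone. The second Aldh3a1 probe set, 162331_f_at, reached neither mark on any array. For the dimmer probe sets a change is therefore compressed by the background, and by the 32 units added before taking log2.

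Nfe2l2, the gene of the Nrf2 factor, was the brightest of these probe sets (92562_at), although levels of different genes cannot be compared on this array. Control signals were 758.0, 790.0, 994.9, 684.7, 757.9, 749.7, 798.5 and 849.8, with a mean of 797.9 ± 92.5 (SD, n = 8). At 1.5 µg/kg the signals were 909.6, 811.8, 798.5 and 948.2, and at 3 µg/kg they were 981.3, 815.6, 828.2 and 844.3. At 6 µg/kg they were 818.7, 1219.1, 870.2 and 910.6, with a mean of 954.7 ± 180.3 (SD, n = 4). All 12 dosed arrays lay above the control median, but 11 of the 12 lay within the control range, and the one outside it was array 2 at 6 µg/kg. For this gene and those below, the share of all probe sets with such counts was not computed, so the counts are a description. The log2 difference from controls was 0.12, 0.12 and 0.24 at 1.5, 3 and 6 µg/kg. The last had a standard error of 0.10 and a 95% interval of 0.02 to 0.46, that is 1.02-fold to 1.37-fold. Its adjusted p in limma was 0.513, and an exact permutation test gave p = 0.0566. The trend was 0.04 log2 units per µg/kg (limma adjusted p = 0.652). Without array 2 the difference at 6 µg/kg was 0.12, without array 4 that at 1.5 µg/kg was 0.08, and without array 1 that at 3 µg/kg was 0.06.

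Tiparp, the AhR-induced ADP-ribosyltransferase, differed more between arrays of 1 dose than between doses (93985_at). Its control signals were 209.4, 178.2, 200.9, 260.4, 148.0, 225.6, 223.0 and 159.6, with a mean of 201 ± 37.3 (SD, n = 8). At 1.5 µg/kg the 4 arrays gave 234.1, 137.4, 368.6 and 139.1, so that 1 lay above all controls and 2 below them all. At 3 µg/kg they gave 310.5, 399.8, 164.7 and 160.9, with 2 above all controls and the others near the bottom of the control range. At 6 µg/kg they gave 175.5, 230.3, 225.5 and 328.3, with 1 above all controls. The coefficient of variation was 18.6% in controls and 49.6%, 45.1% and 26.7% at the rising doses; the difference in spread was not tested.

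The log2 difference of Tiparp from controls was 0.04 (95% interval -0.45 to 0.52), 0.25 (-0.23 to 0.73) and 0.21 (-0.27 to 0.69) at the 3 rising doses, with limma adjusted p of 0.965, 0.945 and 0.792. At 6 µg/kg the interval ran from 0.83-fold to 1.62-fold. Single arrays carried the means. At 1.5 µg/kg the difference was -0.22 without array 3 and 0.20 without array 2. At 3 µg/kg it was 0.03 without array 2, 0.14 without array 1 and 0.42 without array 4. At 6 µg/kg it was 0.07 without array 4 and 0.33 without array 1. The array with the most Tiparp was array 3 at 1.5 µg/kg, array 2 at 3 µg/kg and array 4 at 6 µg/kg, while Cyp1a1 was highest on arrays 4, 2 and 3 of these doses. The array of 6 µg/kg with the most Tiparp also had a high log2 ratio of the 3′ to the middle β-actin control probe sets, 1.02, a sign of RNA or cDNA quality, whose part in this value was not tested.

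Nqo1, the quinone reductase, was read by a pair of probe sets near the background that did not follow each other. The suffix _f_at marks probes that can match more than 1 gene of a family, and _r_at marks probes chosen under relaxed rules. Probe set 94350_f_at gave 111.6, 62.8, 108.9, 75.7, 113.7, 92.3, 92.8 and 87.9 in controls, a mean of 93.2 ± 18.0 (SD, n = 8). It gave 69.9, 120.2, 85.8 and 81.1 at 1.5 µg/kg, 121.3, 101.7, 103.2 and 103.4 at 3 µg/kg, and 110.8, 96.7, 115.9 and 108.5 at 6 µg/kg. At each dose 1 of 4 arrays lay above all controls and the rest lay inside the control range. The log2 differences were -0.05, 0.17 and 0.17, with limma adjusted p of 0.923, 0.945 and 0.75, and at 6 µg/kg the 95% interval ran from 0.901-fold to 1.41-fold. Without array 1 of 1.5 µg/kg, the array with the deviating day on its label, the first of these was 0.03, and without control 2 the second was 0.11.

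Probe set 94351_r_at of Nqo1 gave control signals of 92.9, 95.6, 84.3, 79.5, 72.7, 95.2, 59.6 and 100.5, a mean of 85.1 ± 13.9 (SD, n = 8). The dosed signals were 130.0, 86.1, 108.7 and 70.7 at 1.5 µg/kg, 88.6, 101.9, 130.8 and 93.3 at 3 µg/kg, and 89.3, 172.0, 114.4 and 77.2 at 6 µg/kg. At each dose 2 of 4 arrays lay above all controls, 6 of 12 in all. The probe set passed the filter through dosed arrays alone, so this count and the values that follow are a description. The log2 differences were 0.15, 0.21 and 0.28, and the last had a 95% interval of -0.10 to 0.65 and a limma adjusted p of 0.639, that is 0.934-fold to 1.57-fold. Single arrays carried these values too: without array 1 at 1.5 µg/kg the difference was 0.04, without array 3 at 3 µg/kg it was 0.12, and without array 2 at 6 µg/kg it was 0.10. Across the 20 arrays the 2 Nqo1 probe sets had a Pearson r of -0.106, a description of arrays that share groups and scaling.

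Aldh3a1, the aldehyde dehydrogenase, showed no dose order (99548_at). Control signals were 34.1, 124.0, 183.4, 106.7, 145.3, 139.8, 144.7 and 111.3, a mean of 123.7 ± 43.4 (SD, n = 8), with control 1 far below the others. At 1.5 µg/kg the signals were 123.8, 105.7, 163.9 and 235.5, at 3 µg/kg they were 62.9, 129.9, 61.9 and 74.3, and at 6 µg/kg they were 119.8, 256.0, 160.9 and 176.1. Thus 3 of the 4 arrays at 3 µg/kg lay below every control but control 1, and 1 array each at 1.5 and 6 µg/kg lay above all controls. The log2 differences from controls were 0.30, -0.42 and 0.46, with limma adjusted p of 0.667, 0.906 and 0.586. At 6 µg/kg the 95% interval was -0.07 to 0.99, or 0.953-fold to 1.99-fold, the highest upper limit among the 5 tested probe sets. In the joint test of the doses the limma adjusted p was 0.355.

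The arrays at 6 and 3 µg/kg were also set against each other for 99548_at, a comparison picked out after the values were seen. The difference was 0.88 log2 units (95% interval 0.27 to 1.49, limma adjusted p = 0.255), and 0 of 5 probe sets passed, against 0.0371% of all. Under the alternatives it ranged from 0.60 to 1.12, with limma adjusted p from 0.0723 to 0.494. Between 3 and 1.5 µg/kg the same probe set differed by -0.72 (95% interval -1.33 to -0.11, limma adjusted p = 1), where 0 of all 8097 probe sets passed. Between 6 and 1.5 µg/kg 0 of 5 passed, against 0.346% of all. Against controls, the difference at 6 µg/kg was 0.298 without array 2 and 0.295 without control 1, and that at 1.5 µg/kg was 0.12 without array 4 and 0.13 without control 1. Control 1 had a β-actin 3′ to middle log2 ratio of 1.18, among the 4 highest of the 20 arrays, and the part of this in its low Aldh3a1 signal was not tested. The dimmer probe set 162331_f_at lay between 16.4 and 36.8 on the 20 arrays, with a control mean of 25.8 ± 4.81 (SD, n = 8) against 29.0 ± 6.21 (SD, n = 4) for the highest dose, and exact permutation p of 0.448, 0.576 and 0.36 at the 3 doses. Its values stayed at the level of the bacterial and yeast control probe sets, so it puts no useful limit on a change.

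Array 2 at 6 µg/kg was the highest of its group for Nfe2l2, for 94351_r_at of Nqo1 and for both probe sets of Aldh3a1, and the lowest for 94350_f_at of Nqo1. It also had the highest median signal of all 20 arrays, 209.9, next to 200.6 on control 5, and the highest median of the bacterial and yeast control probe sets, 36.3, next to 34.5 on array 4 of the same dose and 30.8 on control 6. The part of this in the values above was not tested.

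**Figure D2:**
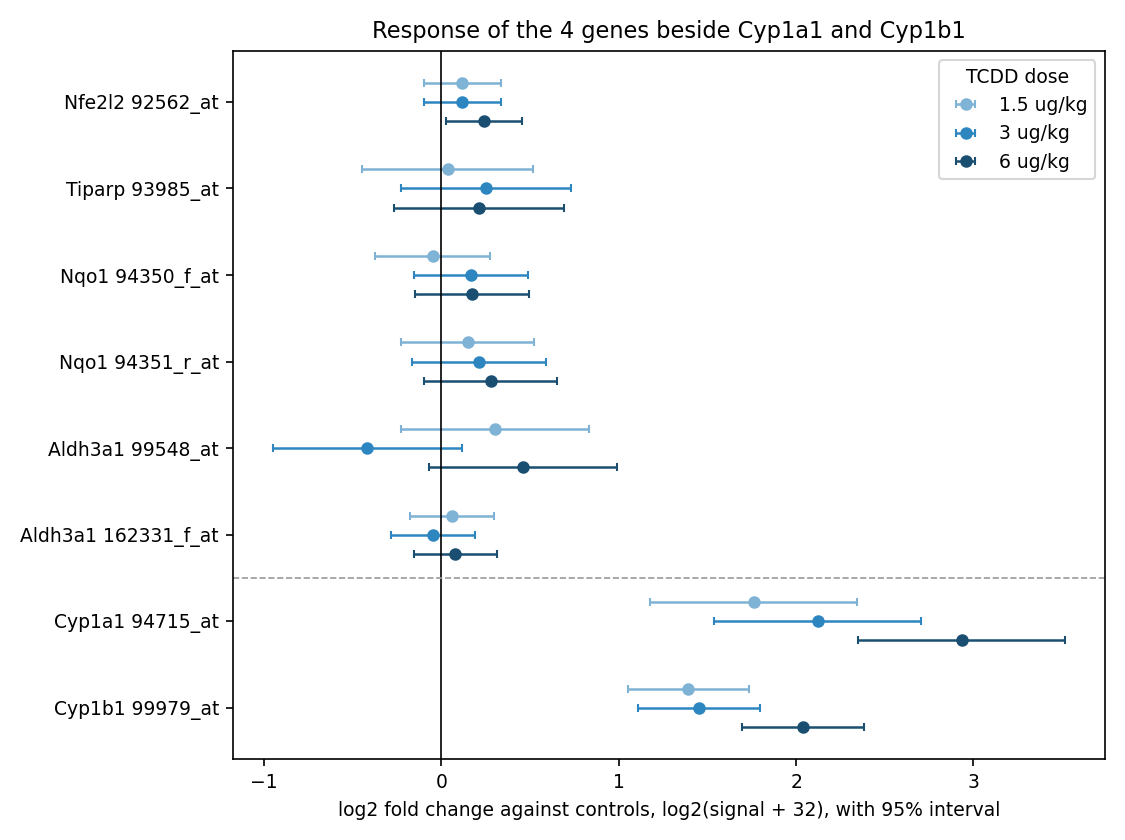
Log2 difference from controls (x axis, log2 of signal + 32) with its 95% interval from limma for the 6 probe sets of the 4 genes (162331_f_at from a fit without the filter) and, for comparison, Cyp1a1 94715_at and Cyp1b1 99979_at, at 1.5, 3 and 6 µg/kg TCDD. Intervals of the 4 genes span 0 at each dose except for Nfe2l2 at 6 µg/kg (0.02 to 0.46), while those of Cyp1a1 and Cyp1b1 lie above 1 at each dose. The Cyp1a1 and Cyp1b1 values are set against controls near background.

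On the same arrays the dioxin response of the Cyp1 enzymes was present. Cyp1a1 (94715_at) went from 39.6 ± 23.0 (SD, n = 8) signal units on control arrays to 507 ± 150 (SD, n = 4) on those of 6 µg/kg. Its control signals exceeded the highest bacterial or yeast control probe set on 1 of 8 arrays and the 40th percentile on 0, so no fold is given for it. Cyp1b1 (99979_at) went from 79.1 ± 19.4 (SD, n = 8) to 422 ± 65.7 (SD, n = 4), and was 2.62-fold, 2.74-fold and 4.11-fold higher at the 3 doses on the scale of signal + 32. Its control signals reached the 40th percentile on 1 of 8 arrays and exceeded the highest bacterial or yeast control probe set on 4. These folds are therefore also set against controls near background. At each dose the 4 arrays lay above all 8 controls for both probe sets. The share of all probe sets that do so was not computed. Cyp1a1 passed the filter through dosed arrays alone, so the p-values given here come from a limma fit without the filter. There the adjusted p was at most 0.0147 for both probe sets. These probe sets were known from earlier results to respond, so their rise is given as a reference. The other probe set of each gene did not show it: 161831_at of Cyp1a1 differed by -0.13, -0.44 and 0.18 (limma adjusted p from 0.852 to 0.907), and 161368_r_at of Cyp1b1, at or below 8.4 signal units on each array, was too dim to read.

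The response of the 4 genes is set beside that of Cyp1b1 at 6 µg/kg as a description, with no test, because Cyp1b1 was taken for its known rise. On the same arrays Cyp1b1 rose by 1.58 log2 units more than 99548_at of Aldh3a1, by 1.80 more than Nfe2l2, by 1.83 more than Tiparp, and by 1.87 and 1.76 more than 94350_f_at and 94351_r_at of Nqo1. The upper limits of the 95% intervals at 6 µg/kg were 1.37-fold for Nfe2l2, 1.41-fold and 1.57-fold for Nqo1, 1.62-fold for Tiparp and 1.99-fold for 99548_at of Aldh3a1. A probe set near its background understates a fold change, so for Nqo1 and Aldh3a1 these limits hold for the measured signal. The dim probe set 162331_f_at was left out of this description.

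The remaining genes of both pathways were counted by 1 probe set a gene, its brightest. Of 13 other AhR targets, 10 were on the array and 6 were tested. Cyp1a1 and Cyp1b1, the known responders, rose at each dose and 0 genes fell, and the other 4 did not pass. Gsta2, a glutathione transferase, differed by 0.19, 0.26 and 0.23, and Socs2, a suppressor of cytokine signalling, by 0.42, 0.19 and 0.07 (limma adjusted p 0.205 at 1.5 µg/kg). Both were picked out after their values were seen. Gsta2 was dim, with control signals between 73.05 and 147.3. The list's median log2 difference was 0.30, 0.28 and 0.17 at the rising doses, where the medians of all tested probe sets were 0.009, 0.005 and -0.001. Cyp1a1 reached the filter through the dosed arrays alone, and Cyp1b1 through them and 1 control array. For the 4 genes other than Cyp1a1 and Cyp1b1 the medians were 0.15, 0.27 and 0.09.

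In the other lists 0 genes passed in limma at any dose, which for lists of this size is what the shares of all probe sets that passed (0.210%, 0.0247% and 0.0741%) give, and it does not show that a gene stayed the same. Before adjustment, 12.6%, 5.72% and 9.15% of all probe sets had p under 0.05 in limma at the rising doses. Of the receptor complex, 3 of 7 listed genes were tested, and before adjustment 0, 0 and 1 had p under 0.05 at these doses. Ahr itself differed by 0.06, 0.21 and -0.17, and Arnt, its partner, by -0.18, -0.07 and -0.11. The Ahr signal averaged 87.3 on control arrays, below the lowest 40th percentile of an array, 102, so a change in it may be understated. Hsp90aa1, the chaperone that holds unbound AhR in the cytoplasm, differed by 0.05, 0.01 and 0.24, with a limma adjusted p of 0.454 at 6 µg/kg. The list's medians were 0.05, 0.01 and -0.11. Of 14 partners and regulators of Nrf2, 8 were tested, of which 1, 0 and 0 had p under 0.05 before adjustment, with medians of 0.08, -0.02 and -0.004. Btrc, which takes part in the degradation of Nrf2, differed by 0.16, -0.02 and 0.15, and Mafk, a small Maf partner, by 0.00, -0.04 and -0.08. Keap1, the inhibitor of Nrf2, did not pass the filter.

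Of 28 other Nrf2 targets, 25 were on the array and 20 were tested; before adjustment 2, 2 and 1 had p under 0.05 at the rising doses, where 12.6%, 5.72% and 9.15% of all probe sets did. The medians were -0.05, 0.04 and 0.06, and 8, 14 and 14 of the 20 genes had a positive difference. Gclm, the modifier subunit of the enzyme that begins glutathione synthesis, differed by -0.07, -0.05 and 0.25. Txnrd1, thioredoxin reductase, differed by -0.05, 0.01 and -0.27, with a limma adjusted p of 0.513 at 6 µg/kg. Hmox1, heme oxygenase, differed by 0.36, 0.35 and 0.12, with limma adjusted p of 0.232, 0.717 and 0.789; it was picked out after its values were seen. Of 20 relatives of the 4 genes by enzyme family, 9 were tested, of which 0, 2 and 0 had p under 0.05 before adjustment, with medians of 0.03, 0.06 and -0.02. Among them Aldh1a1 and Aldh1a2, which make retinoic acid, differed by 0.51 and 0.55 at 1.5 µg/kg, by 0.70 and 0.56 at 3 µg/kg and by -0.04 and -0.21 at 6 µg/kg, and neither passed at any dose. Both were also picked out after their values were seen. Aldh1a2 was dim, with control signals between 29.58 and 176.

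**Figure D3:**
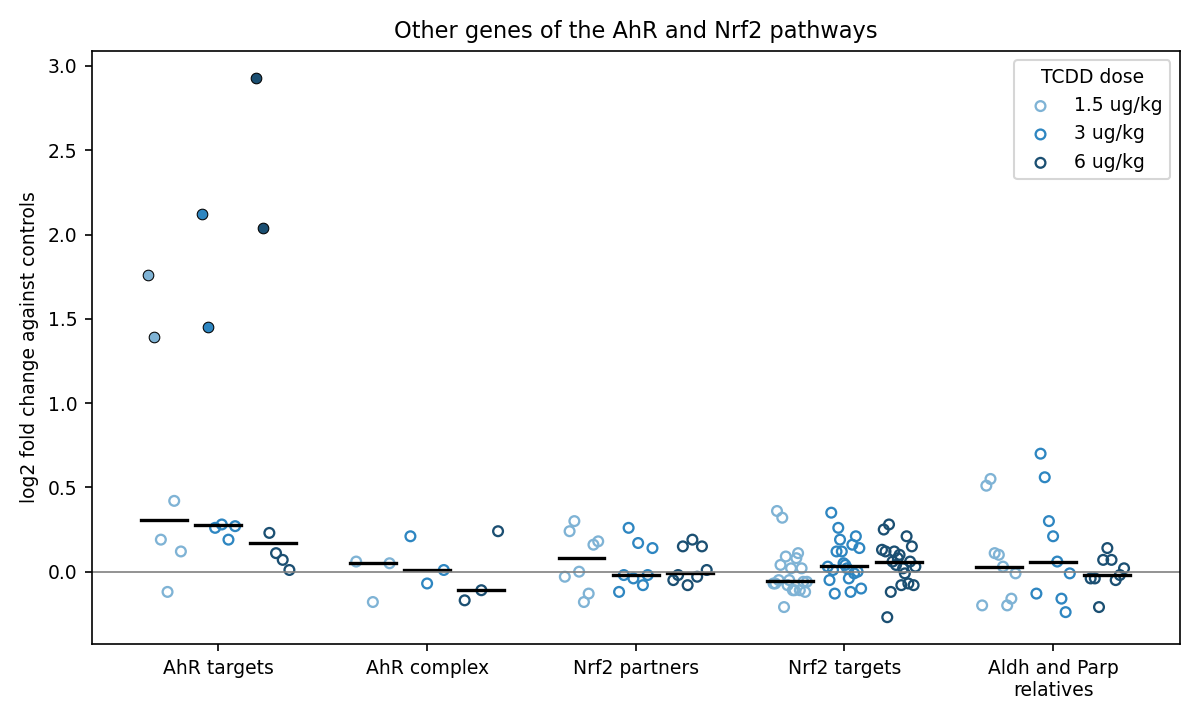
Log2 difference from controls (y axis) of the tested genes of 5 pathway lists at 1.5, 3 and 6 µg/kg TCDD, 1 point a gene (brightest probe set), with bars at list medians. Filled points passed a limma adjusted p of 0.05, and these are Cyp1a1 and Cyp1b1 at each dose.

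The probe sets whose signal ran most like each gene's over the 20 arrays were listed by Pearson r, as a description of arrays that share groups, scaling and RNA quality. Only the highest r among all tested probe sets are given for each gene. The highest r that unrelated probe sets reach over so few arrays was not computed, so no link between genes can be read from these values. Nfe2l2 ran most like Tuba8 (0.791), Ctnnd2 (0.71) and Tnnt1 (0.707). Tiparp ran most like Bach1 (0.689), Atp2c1 (0.681) and Timp3 (0.679). Nqo1 94350_f_at ran most like H2-M10.1 (0.804), St6galnac2 (0.768) and Mrps18a (0.725), and Aldh3a1 99548_at most like Lhx1 (0.75), Olfr70 (0.73) and Selenos (0.673). With group means removed, r lay at 0.751 for Tuba8, 0.679 for Bach1, 0.796 for H2-M10.1 and 0.635 for Lhx1. Among the 4 genes themselves the highest r was 0.452, between 94351_r_at of Nqo1 and Nfe2l2, and the 2 Aldh3a1 probe sets had an r of 0.306.

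The arrays carried the marks of heart tissue: all 11 cardiomyocyte markers were tested, and their summed signal lay between 164299 and 251646. Array medians lay between 171 and 209.9, and correlations between arrays across probe sets between 0.957 and 0.986, and precision is limited by how few arrays there are. The summed signal of the 10 tested of 12 macrophage and leukocyte markers lay between 2994 and 3520 in controls and between 3786 and 4550 on dosed arrays. The markers were chosen with earlier results of these data known. The share of all probe sets that separate in this way was not computed, and the difference was not tested. Sums of hepatocyte, erythroid and endothelial markers overlapped between controls and dosed arrays. Lung epithelial markers, of which 3 of 9 were tested, summed to between 209.2 and 4448, with wide overlap between groups. Their median sum was 946.5 in controls and 1682, 3081 and 667.7 at the rising doses. With the lung score as a covariate 0 of the 5 probe sets passed, as without it, so this count does not show the part of these markers. Tiparp at 3 µg/kg differed by 0.37 with this covariate and by 0.25 without it. The part of lung tissue in the values was not tested otherwise.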

How the data were processed

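For each probe set and array (Affymetrix MG-U74Av2) the authors deposited a linear intensity, the signal in arbitrary units, made with MAS5 per the submitters' processing notes, with no version given. A 2% trimmed mean between 500.28 and 500.341 on each array shows common scaling. RNA was extracted with Trizol and labelled as cRNA, per the labels' protocols. From these signals, 66 AFFX controls were left out, arrays were scaled to a trimmed mean of 500, and log2(signal + 32) was taken. Probe sets with at least 4 arrays at or above the array's 40th percentile (8097 of 12422) were tested with limma 3.58.1 in R 4.3.3 (lmFit, eBayes with an intensity trend) over all 20 arrays, two-sided, with Benjamini-Hochberg adjustment at 0.05. Fold values are on the scale of signal + 32. Single probe sets were also compared by exact permutation tests.

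The script was tested on simulated data. Gene symbols came from the platform annotation: 10833 probe sets carry 1 symbol, 396 several and 1193 none, and only probe sets with 1 symbol were named. Promoter sequences were taken from a table of RefSeq promoters, in which 3 of the 4 genes were matched by symbol. Named were all probe sets of the 4 genes, Cyp1a1 and Cyp1b1, and from each list up to 2 genes a direction by the smallest p at 6 µg/kg and any past the threshold, of which examples are printed. The genes, lists and tests were chosen with earlier results of these data known. Alternatives changed the scaling, pseudocount, filter, controls, block, covariates, variance model and arrays; added once values were seen were a fit without the 4 arrays whose β-actin ratio was high, the bacterial and yeast reference, the AhR target list without the Cyp1 genes and the comparison of 6 with 3 µg/kg. Plots used matplotlib 3.10.9 in Python 3.11.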

Additional observations from a re-analysis of the deposited data

Results flagged for a closer look

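Of 24 groups of arrays, 1 for each of the 6 probe sets and 4 groups, 2 held an array far from the others by Dixon's criterion, which chance alone meets in about 1 group in 20. Array 1 at 3 µg/kg read 121.3 for 94350_f_at of Nqo1, where the other 3 arrays of that dose lay between 101.7 and 103.4. Control 1 read 34.1 for 99548_at of Aldh3a1, where the other 7 controls lay between 106.7 and 183.4.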

How the results depend on the processing

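Under 36 alternatives, 20 of them leaving out 1 array, the number of probe sets of the 4 genes past the threshold was 0 in each of the 208 recounts. The lowest limma adjusted p of any of them was 0.15, with the joint test among the comparisons. Apart from the joint test it was 0.262, for 99548_at of Aldh3a1 at 6 µg/kg with the replicate number as a block. Directions turned only for log2 differences near 0. For Tiparp at 1.5 µg/kg (0.04 in the report) the value was -0.009 after quantile normalization and -0.04 with controls 1 to 4 alone, and from -0.219 to 0.195 with 1 array left out. For 94350_f_at of Nqo1 at 1.5 µg/kg (-0.05) it lay between -0.164 and 0.029 with 1 array left out. For 99548_at of Aldh3a1, all TCDD arrays against controls (0.12), it was -0.05 with controls 5 to 8 alone, -0.065 with the 4 arrays left out whose β-actin ratio was high, and from -0.052 to 0.192 with 1 array left out. The causes were not tested.

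Counts over all probe sets moved with the controls used. At 1.5 µg/kg 17 passed, against 3 with controls 1 to 4 alone and 153 with controls 5 to 8 alone. At 3 µg/kg 2 passed, against 4 and 30; at 6 µg/kg 6 passed, against 187 and 3. The joint test gave 15, against 87 and 169, the trend 5, against 165 and 2, and all TCDD arrays 4, against 14 and 25. With 1 array left out the counts ranged from 4 to 51 at 1.5 µg/kg, 2 to 3 at 3 µg/kg, 4 to 12 at 6 µg/kg, 8 to 36 in the joint test, 2 to 6 in the trend and 4 to 9 for all TCDD arrays.

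With the replicate number as a block, 0 of the 5 probe sets passed in each comparison, Tiparp at 1.5 µg/kg was -0.04, and the counts over all probe sets were 2, 3 and 122 at the 3 doses, 65 in the joint test, 130 in the trend and 15 for all TCDD arrays. Numbers 5 to 8 occur only among controls, so those controls add nothing to the differences in this fit. It therefore rests on controls 1 to 4, as the fit with these alone does. Of 24 pairs of same-numbered arrays, 5 had a correlation of deviations over 0.1, with a range of -0.222 to 0.21. Pairs with different numbers were not computed, so these values do not show whether same-numbered arrays belong together.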
